A study of Mus musculus with 16 samples.

Results

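Break ends were described in the mouse zinc finger genes named Zfp followed by a number. Members were all protein-coding genes of GENCODE M21 on chromosomes 1 to 19 of the mm10 build whose symbol has that form, which gave 385 of the 32093 protein-coding and lncRNA genes annotated on the main chromosomes. A member was called clustered where another member lay within 100 kb and solitary otherwise, which gave 218 clustered and 167 solitary members. The rule uses symbols and positions and no measured value.

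The series mapped double-strand breaks by BLISS, in which free DNA ends in fixed, permeabilised cells are blunted, ligated to adapters in place and sequenced after in vitro transcription. The cells were AB22, a mouse malignant mesothelioma line, carrying either pTRIPZ-shHMGB1 or pTRIPZ-shCTRL, lentiviral doxycycline-inducible hairpins, of which shHMGB1 silences the chromatin protein HMGB1. Both lines received puromycin selection and doxycycline, were synchronised in G1 and were exposed to a caesium gamma source for a dose of 0, 3, 5 or 10 Gy. Each of the 8 combinations of hairpin and dose had 2 libraries, 16 in all, and both hairpin lines derive from a single tumour line, so differences between them cannot be told apart from differences between the transduced populations. By its title the study asked whether nucleosomes shield DNA from radiation breaks, with silencing of HMGB1 as the perturbation. The libraries hold no transcripts, so neither the silencing of HMGB1 nor the mesothelial identity of the cells is measured in them.

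Most Zfp genes encode C2H2 zinc finger proteins, in which tandem fingers, each folded around a zinc ion held by a pair of cysteines and a pair of histidines, read DNA sequence. A large share of them also carry a KRAB domain, which binds the co-repressor TRIM28 and brings the histone methyltransferase SETDB1 and HP1 proteins to DNA, and many of these silence retroelements. KRAB zinc finger genes arose by local duplication, stand in clusters of related copies and usually encode the whole finger array in a single long last exon. Zfp36, Zfp36l1 and Zfp36l2 share the symbol but are CCCH fingers that bind AU-rich mRNA and speed its decay.

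The deposited files held 131430 to 1010888 ends per library on the main chromosomes, with a median of 805996. Members held 48420 of these ends over all libraries, 587 to 4292 per library, or 0.389 to 0.482% of a library. A member had a median of 71 ends over the 16 libraries, 5 members had none and Zfp804b had the most at 1394. The smallest library was shCTRL 3 Gy replicate 2, in which a single end is worth 7.61 counts per 1000000 ends (CPM), and many of the highest values given below come from it. Between 18.3 and 26.7% of each library lay in 32 dense regions, and the 4 shCTRL replicate 1 libraries had more there (24.6 to 26.7%) than the 4 shCTRL replicate 2 libraries (18.3 to 22.0%).

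Sequence features were computed for the members alone, so they are not set against those of other genes. Patterns were searched in stop-free stretches of any forward frame of the protein-coding GENCODE M21 transcripts, so they need not lie in the coding frame. At least 1 C2H2 finger pattern was found in 373 of 385 members, and the highest number in a member was 36. A KRAB pattern was found in 212 members, 162 of 218 clustered members (74.3%) and 50 of 167 solitary members (29.9%). Clustered members had a median of 11 fingers and 5 exons, and solitary members a median of 8 fingers and 6 exons. For each member, the share of its transcript 31-mers that also occur in another gene's transcript was computed, and its median was 7.68% in clustered and 2.35% in solitary members. It was above 50% in 38 members. The extreme case stands on chromosome 2, where Zfp966, Zfp967, Zfp968 and Zfp969 have the same 1455-base coding sequence and Zfp965 has a related coding sequence of 954 bases. A stretch of 84 bases that spans a finger in Zfp965 is shown for a pair of them, from GENCODE M21 transcripts. It lies at chr2:176530720-176530803 (plus strand) for Zfp967 and chr2:175479729-175479812 (plus strand) for Zfp965. Capitals mark the 4 bases at which they differ. The last of them makes a cysteine codon of the finger in Zfp965 (tGt) a tyrosine codon in Zfp967 (tAt). The stretch of Zfp967 therefore lacks the full finger pattern.
Zfp967: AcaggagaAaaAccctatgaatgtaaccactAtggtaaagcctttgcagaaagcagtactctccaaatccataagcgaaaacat
Zfp965: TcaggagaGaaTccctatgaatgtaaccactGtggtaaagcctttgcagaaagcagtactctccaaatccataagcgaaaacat
All 5 of these genes had 0 ends in all 16 libraries, including Zfp967 (chr2:176521056-176532479) and Zfp965 (chr2:175469985-175482171). With 3 counts as the floor over the 16 libraries, a count of 0 allows up to 0.0231 CPM per kb in Zfp967 and 0.0216 CPM per kb in Zfp965. How reads that match several places were treated is not given in the sources used here, and the part of shared sequence in these zeros was not tested.

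Exons of members held more ends per kb than their introns in all 16 libraries. Clustered members had 0.470 ± 0.048 CPM per kb in exons and 0.312 ± 0.020 CPM per kb in introns (SD, n = 16 libraries). Solitary members had 0.659 ± 0.089 CPM per kb in exons and 0.294 ± 0.019 CPM per kb in introns. On a log2 scale the exon density exceeded the intron density by 0.58 ± 0.13 in clustered and by 1.15 ± 0.22 in solitary members. The same difference was 2.12 ± 0.15 in other protein-coding genes and 0.52 in the 86 Zbtb, Zkscan, Zscan and Klf genes, which are other families with C2H2 fingers. It was 0.11 in the 1128 olfactory receptor (Olfr) genes and 0.23 in the 329 vomeronasal receptor (Vmn) genes.

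The clearest difference between clustered and solitary members was in exons. The exon density of clustered members, relative to solitary members, was lower by a log2 difference of -0.48 ± 0.17, and it was lower in each of the 16 libraries. Intron densities were closer, with a log2 difference of 0.09 ± 0.08 that was positive in 14 of 16 libraries. The intron difference was -0.24 ± 0.17 as a mean over genes in place of pooled bases and -0.21 ± 0.16 among members of at most 50 kb, so its direction changed with the way of averaging. Within exons, the longest exon of each gene, which in most KRAB zinc finger genes holds the fingers, had 0.400 ± 0.051 CPM per kb in clustered members, against 0.647 ± 0.136 CPM per kb in their other exons. In solitary members the longest exon had 0.547 ± 0.068 CPM per kb, against 0.812 ± 0.145 CPM per kb in the other exons. The longest exon was the sparser of the pair in all 16 libraries for both classes, and also in other protein-coding genes, where the log2 difference was -0.71 ± 0.07, against -0.67 ± 0.37 in clustered and -0.56 ± 0.21 in solitary members.

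Members with a KRAB pattern had sparser exons than members without. The 212 members with the pattern had 0.420 ± 0.060 CPM per kb in exons, against 0.70 ± 0.10 CPM per kb in the 173 members without it, a log2 difference of -0.74 ± 0.26 that was negative in all 16 libraries. The 50 solitary members with the pattern had 0.391 ± 0.082 CPM per kb in exons, near the 0.430 ± 0.062 CPM per kb of the 162 clustered members with it. Without the pattern, solitary members had 0.744 ± 0.108 and clustered members 0.578 ± 0.114 CPM per kb in exons. Introns differed little, with 0.311 ± 0.017 CPM per kb with the pattern and 0.294 ± 0.021 CPM per kb without it. Members with the pattern shared a median of 8.25% of their 31-mers with other genes, against 1.88% in members without it, and the part of this in the exon difference was not tested.

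Members also held fewer ends per kb than other protein-coding genes on chromosomes 1 to 19. All members together had 0.564 ± 0.062 CPM per kb in exons and 0.300 ± 0.018 CPM per kb in introns. As deposited, these were 0.310 and 0.719 times the densities of other genes. With dense regions left out of bases, ends and totals, members had 0.730 ± 0.074 CPM per kb in exons, against 1.16 ± 0.16 CPM per kb in other genes, a ratio of 0.634. Introns then had 0.388 ± 0.014 CPM per kb in members, against 0.474 ± 0.021 CPM per kb in other genes, a ratio of 0.817. Members were below other genes in all 16 libraries in both parts of the gene. Relative to other genes on the same chromosome, the intron density was 0.803 ± 0.044 times theirs in clustered and 0.819 ± 0.040 times theirs in solitary members. The 86 Zbtb, Zkscan, Zscan and Klf genes were close to the members in exons, with a log2 difference of members over them of -0.07 ± 0.14, but had denser introns, with a difference of -0.45 ± 0.16. Olfr and Vmn genes were sparser than the members. The log2 difference of members over Olfr genes was 1.11 ± 0.37 in exons and 0.31 ± 0.26 in introns. Over Vmn genes it was 1.23 ± 0.40 in exons and 0.55 ± 0.30 in introns.

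**Figure D1:**
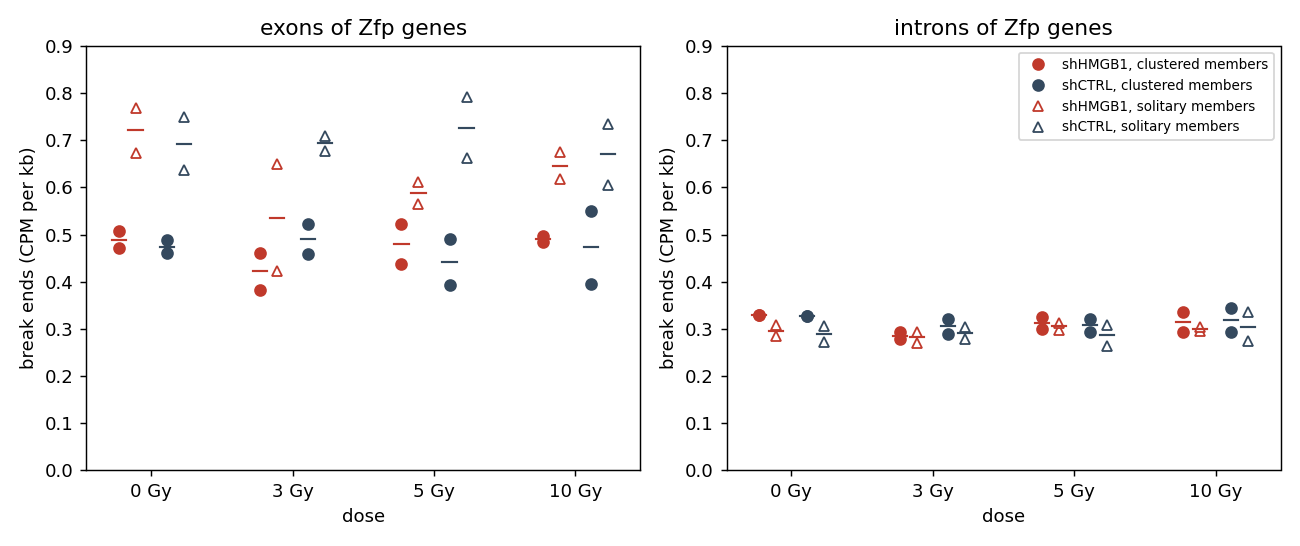
Break ends per kb, in CPM, in exons (left) and introns (right) of clustered members (filled circles) and solitary members (open triangles) by dose in Gy. Each point is a library, red for shHMGB1 and dark for shCTRL, and bars are the means of 2 libraries. In each library exons of solitary members lie above exons of clustered members, while all intron values lie between 0.264 and 0.343 CPM per kb.

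The amount of transcript sequence shared with other genes went with the density. Overlapping genes count as other genes here, and sequence shared between introns is not covered. Members sharing at most 5% of their 31-mers had 0.645 ± 0.083 CPM per kb in exons and 0.32 ± 0.02 CPM per kb in introns. The 38 members sharing over 50% had 0.296 ± 0.057 CPM per kb in exons and 0.147 ± 0.030 CPM per kb in introns. Over members, the rank correlation between shared sequence and density was -0.28 for exons (385 members) and -0.26 for introns (383 members with an intron), given as a description of genes that share libraries and, in part, sequence. Among clustered members, intron density was 0.399, 0.322, 0.282 and 0.164 CPM per kb for at most 5%, over 5 to 20%, over 20 to 50% and over 50%. Among solitary members it was 0.304, 0.273, 0.346 and 0.108 CPM per kb in the same order, and solitary exons had 0.702, 0.552, 0.902 and 0.254 CPM per kb, so the order was not steady there and the class over 20 to 50%, with 10 genes, was the highest. Restricted to members sharing at most 5%, 94 clustered and 106 solitary, the log2 difference in exons was -0.31 ± 0.19, and in introns it was 0.39 ± 0.11. Among members of at most 50 kb sharing at most 5%, with each position counted once, the exon difference was -0.31 and the intron difference 0.02.

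Low counts stood where sequence was shared. Members with under 1 end per kb over all 16 libraries numbered 17, and 13 of them shared over 50% of their 31-mers. They include Zfp993 with 8 ends in 47.2 kb (91.9% shared), Zfp991 with 20 ends in 48.5 kb (88.0% shared) and Zfp978 with 14 ends in 29.7 kb (85.5% shared), all on chromosome 4. The exceptions include Zfp683, which had 2 ends in 5.16 kb with 0% shared.

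**Figure D2:**
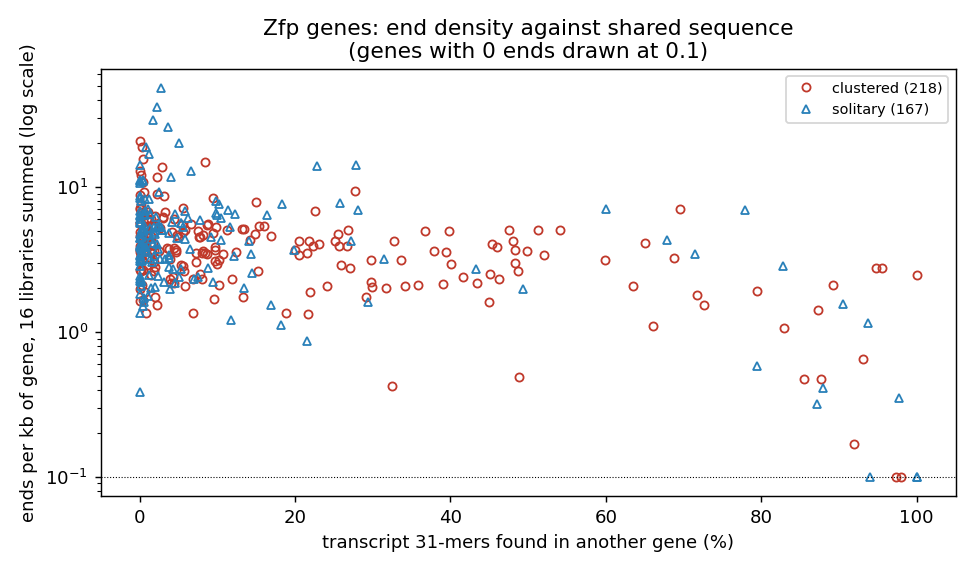
Ends per kb of gene over 16 libraries summed (log scale) against the percent of transcript 31-mers found in another gene's transcript, for 218 clustered (red circles) and 167 solitary (blue triangles) members, with the 5 genes that had 0 ends drawn at 0.1. Most genes below 1 end per kb lie to the right of 50%.

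Clusters differed from each other more than the class means do. There were 49 clusters, 20 of them pairs, and 15 with at least 5 members that held 131 members. The body density of a cluster, exons and introns together, ranged from 0 to 1.07 CPM per kb with a median of 0.387. The largest cluster, Zfp712 to Zfp273 (chr13:67038596-67827002), had 23 members, 19 with a KRAB pattern, and lies in a region of mouse chromosome 13 known for regulators of sex-dependent liver genes. Its introns had 0.218 ± 0.047 CPM per kb, against 0.385 ± 0.030 CPM per kb in introns of other genes on chromosome 13, and its members shared a median of 21.8% of their 31-mers. Introns of neighbouring genes had 0.431 ± 0.085 CPM per kb. Its whole span, however, had 0.242 ± 0.033 CPM per kb, above the 0.152 ± 0.019 CPM per kb of its 500 kb flanks in all 16 libraries. The chromosome 17 cluster Zfp677 to Zfp994 (chr17:21383748-22225616, 15 members, 15 with a KRAB pattern) had 0.351 ± 0.064 CPM per kb in introns, against 0.407 ± 0.031 CPM per kb in other genes of that chromosome. The chromosome 7 cluster Zfp84 to Zfp146 (chr7:29768552-30169750, 15 members) shared a median of only 0.915% and had 0.445 ± 0.090 CPM per kb, against 0.432 ± 0.051 CPM per kb in other genes of the chromosome. Introns of its neighbouring genes had 0.646 ± 0.126 CPM per kb. Its span had 0.421 ± 0.058 CPM per kb, against 0.544 ± 0.086 CPM per kb in the flanks, and was above them in 2 of 16 libraries. Over all 49 clusters the mean span density was above the flanks in 27 and below in 22. Further clusters had intron densities of 0.370 ± 0.137 (Zfp180 to Zfp94, 10 members), 0.305 ± 0.069 (Zfp607b to Zfp850, 8 members) and 0.360 ± 0.108 CPM per kb (Zfp871 to Zfp563, 8 members). Of the 6 clusters with most members, the chromosome 13 cluster was the lowest. Zfp84 to Zfp146 lay above Zfp607b to Zfp850 by more than the SD of either, and the clusters between them lay within their spread of each other.

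In 2 of the 15 clusters with at least 5 members, Zfp607b to Zfp850 and Zfp354c to Zfp354b, the means by hairpin differed by more than the larger SD. Zfp354c to Zfp354b, with 5 members, had a body density of 0.282 ± 0.087 CPM per kb in shHMGB1 and 0.153 ± 0.103 CPM per kb in shCTRL libraries (n = 8 each), on 172 ends in all. The chromosome 13 cluster had a body density of 0.227 ± 0.036 CPM per kb in shHMGB1 and 0.225 ± 0.048 CPM per kb in shCTRL libraries (n = 8 each). It had 0.226 ± 0.044 CPM per kb in the 12 irradiated libraries and 0.225 ± 0.037 CPM per kb in the 4 libraries at 0 Gy. Zfp677 to Zfp994 had 0.389 ± 0.070 CPM per kb in shHMGB1 and 0.333 ± 0.048 CPM per kb in shCTRL libraries. Zfp607b to Zfp850 had 0.308 ± 0.064 CPM per kb in shHMGB1 and 0.387 ± 0.074 CPM per kb in shCTRL libraries. Each of these 2 differences was about as large as the SDs.

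**Figure D3:**
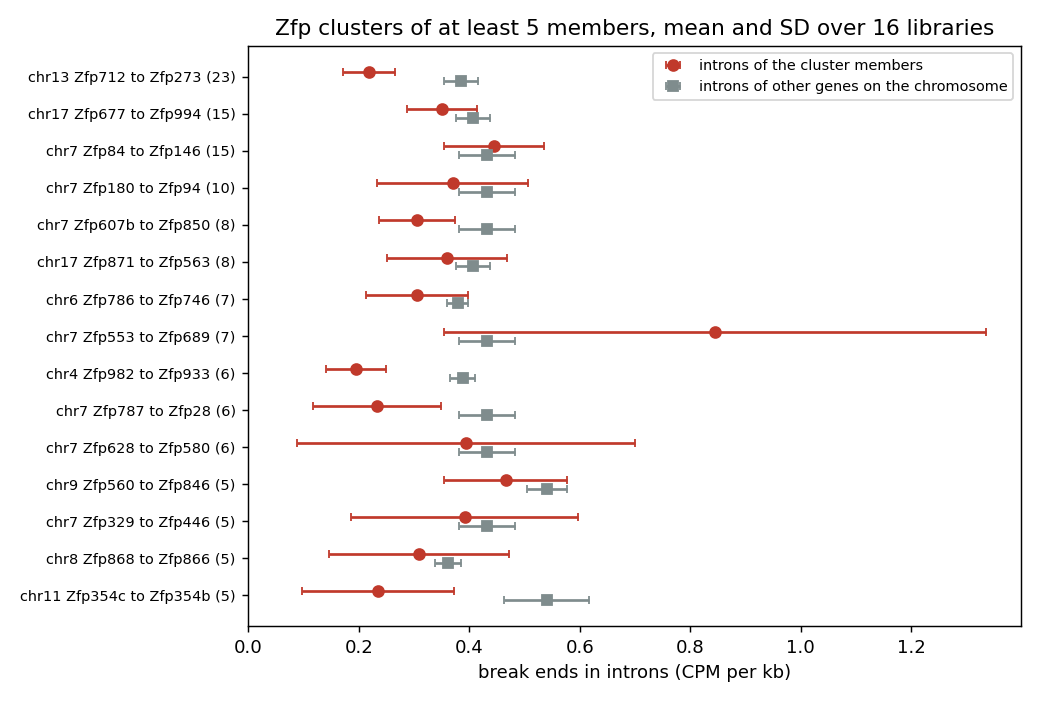
Break ends per kb, in CPM, in introns of the 15 clusters with at least 5 members (red circles, number of members in brackets) and in introns of other protein-coding genes on the same chromosome (grey squares), as mean and SD over 16 libraries. The chromosome 13 cluster of 23 members lies at 0.218, below the 0.385 of its chromosome, while the chromosome 7 cluster Zfp84 to Zfp146 lies at 0.445 beside 0.432.

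The cluster rule has a threshold, and a pair of members close to it on each side is given, too few to compare the sides. Zfp605 and Zfp932 lie 99.681 kb apart and count as clustered, with intron densities of 0.433 ± 0.197 and 0.340 ± 0.245 CPM per kb. Zfp715 and Zfp936 lie 104.088 kb apart and count as solitary, with 0.576 ± 0.292 and 0.282 ± 0.091 CPM per kb.

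Ends were concentrated at the 5′ ends of members, as in other genes. With each position counted once, so that repeated ends at a base do not weigh, and libraries scaled to 1000000 positions, the first 0.5 kb inside the gene held 1.15 ± 0.21 positions per kb in clustered and 1.07 ± 0.33 in solitary members, against 1.45 ± 0.25 in other protein-coding genes. Between 2 and 2.5 kb inside the gene the values were 0.408 ± 0.091, 0.709 ± 0.247 and 0.756 ± 0.077, in the same order, and this was the lowest step inside clustered members. Between 2.5 and 3 kb they were 0.612 ± 0.166, 0.625 ± 0.171 and 0.760 ± 0.072. Over 1 kb on each side of the 5′ end, clustered members had 0.767 ± 0.119, solitary members 0.730 ± 0.116 and other genes 0.993 ± 0.137 scaled positions per kb. Clustered and solitary members did not differ here beyond their spread.

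**Figure D4:**
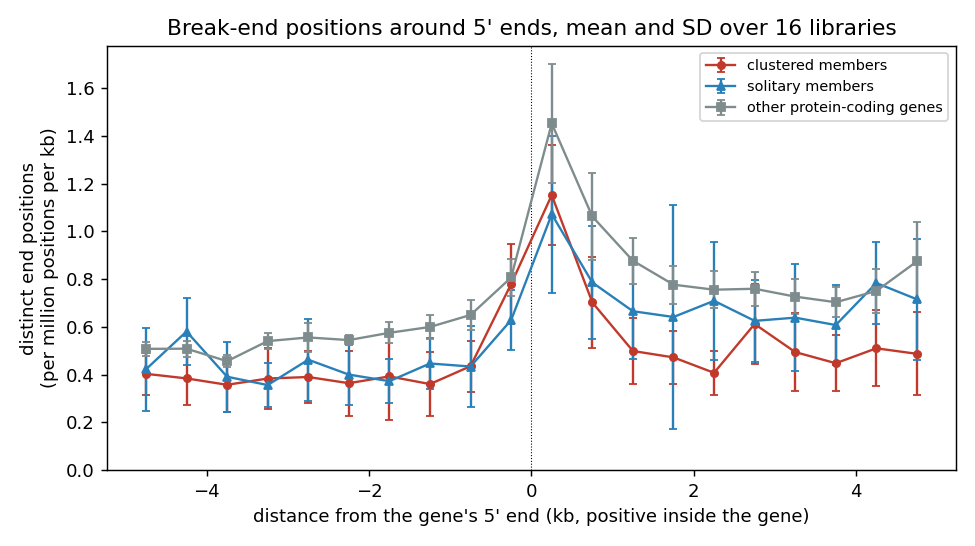
Distinct break-end positions per kb, scaled to 1000000 positions per library, in 0.5 kb steps around the 5′ end of the gene (kb, positive inside the gene), for clustered members (red circles), solitary members (blue triangles) and other protein-coding genes (grey squares), as mean and SD over 16 libraries. All 3 sets peak in the first 0.5 kb, at 1.15, 1.07 and 1.45.

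RefSeq promoter windows, 250 bases before to 50 after a start on GRCm38.p6, were at hand for 319 members (387 windows). Some windows overlap, so an end can count in more than 1 of them. Summed over windows there were 908 ends, 0.687 CPM per kb, and 130 windows held none. The median number of CG dinucleotides was 11 in clustered and 17 in solitary members, against 7 over all 31396 promoters of the table. The window with most ends was that of Zfp207 (chr11:80383029-80383328, plus strand), whose protein BuGZ binds microtubules and the checkpoint protein BUB3, with 25 ends in 10 libraries. The clustered member with most was Zfp30 (chr7:29783718-29784017, plus strand), with 13 ends in 5 libraries, 8 of them at a single base. Both are printed from RefSeq because they carry the most ends among solitary and clustered promoters, and capitals mark the 11 bases around the base with most ends.
Zfp207: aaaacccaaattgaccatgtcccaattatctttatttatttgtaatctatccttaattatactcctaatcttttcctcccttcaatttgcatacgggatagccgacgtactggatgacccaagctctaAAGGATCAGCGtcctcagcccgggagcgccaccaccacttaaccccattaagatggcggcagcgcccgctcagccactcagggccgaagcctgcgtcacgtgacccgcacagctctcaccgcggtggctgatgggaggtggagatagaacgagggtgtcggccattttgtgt
Zfp30: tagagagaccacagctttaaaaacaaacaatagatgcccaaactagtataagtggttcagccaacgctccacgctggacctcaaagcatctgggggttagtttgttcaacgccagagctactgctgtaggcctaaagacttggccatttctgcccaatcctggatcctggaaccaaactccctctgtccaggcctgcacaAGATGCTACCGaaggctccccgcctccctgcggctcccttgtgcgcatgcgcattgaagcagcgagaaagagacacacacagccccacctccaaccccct
The most frequent base of Zfp207 had 6 ends. Its promoter had 17 CG dinucleotides and that of Zfp30 had 9.

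Some members owe most of their ends to a single base. Among members with at least 100 ends, 10 of 134 (7.46%) had at least 20% of their ends at 1 position, against 365 of 8750 (4.17%) other protein-coding genes. The largest pile stood in an intron of Zfp791, a KRAB zinc finger gene on the minus strand of chr8:85108553-85123095 with 5 exons. Position 85113091 held 604 of its 702 ends (86.0%) and was hit in all 16 libraries. Zfp423, a regulator of preadipocyte commitment and of cerebellar development (chr8:87661810-87959595, minus strand), had 527 of 1146 ends (46.0%) at intronic position 87774256, also in all 16 libraries. Zfp251 (chr15:76851609-76871435, minus strand, clustered) had 246 of 409 ends (60.1%) at intronic position 76857332, again in all 16 libraries. Zfp949 had 78 of 150 ends (52.0%) and Zfp395 85 of 213 ends (39.9%) at a single intronic base.

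The pile in Zfp791 was higher in shHMGB1 than in shCTRL libraries at 3 Gy and overlapped at the other doses. At 0 Gy the position had 37.6 and 78.3 CPM in shHMGB1, against 39.2 and 33.2 CPM in shCTRL libraries. At 3 Gy it had 98.4 and 83.9 CPM in shHMGB1, against 37.7 and 53.3 CPM in shCTRL libraries. At 5 Gy the values were 56.5 and 48.3 CPM in shHMGB1, against 52.0 and 55.2 CPM in shCTRL. At 10 Gy they were 36.6 and 49.6 CPM in shHMGB1, against 33.8 and 41.4 CPM in shCTRL. The mean over doses was 61.1 ± 22.9 CPM in shHMGB1 and 43.2 ± 9.0 CPM in shCTRL libraries (n = 8 each). At 3 Gy no shCTRL library reached the lower shHMGB1 library, and no test was made on the single position. Over all doses the position in Zfp423 had 49.9 ± 12.9 CPM in shHMGB1 and 48.5 ± 21.7 CPM in shCTRL libraries. The position in Zfp251 had 22.7 ± 12.6 and 22.8 ± 9.7 CPM in the same order, so neither mean differed beyond its spread. Single doses separated in these genes too, in both directions. Zfp423 had 63.6 and 66.9 CPM in shHMGB1 at 0 Gy, against 37.1 and 56.1 CPM in shCTRL. At 10 Gy it had 43.5 and 38.7 CPM, against 34.9 and 35.5 CPM. Zfp251 at 5 Gy had 15.5 and 15.3 CPM in shHMGB1, against 31.2 and 28.6 CPM in shCTRL. The other doses overlapped.

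**Figure D5:**
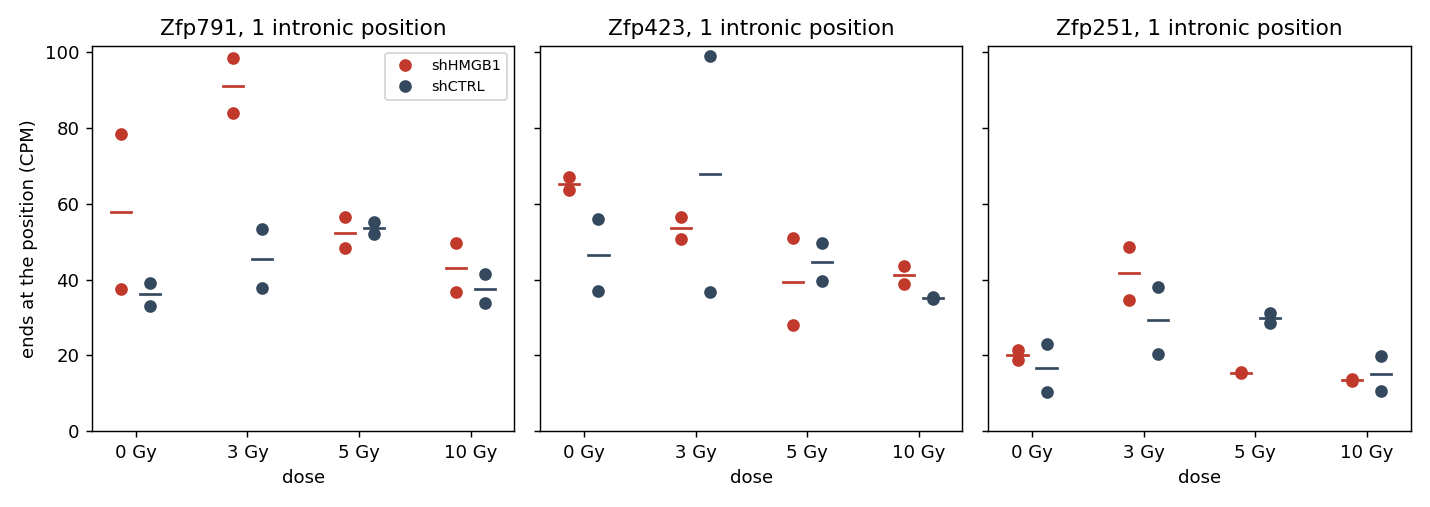
Ends in CPM at the base with most ends in Zfp791, Zfp423 and Zfp251 by dose in Gy. Each point is a library, red for shHMGB1 and dark for shCTRL, and bars are the means of 2 libraries. In Zfp791 both shHMGB1 libraries at 3 Gy (98.4 and 83.9 CPM) lie above all shCTRL libraries, whose highest value is 55.2 CPM. The hairpins also separate in Zfp423 at 0 and 10 Gy, with shHMGB1 higher, and in Zfp251 at 5 Gy, with shHMGB1 lower.

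Piles in exons could be shown as sequence from GENCODE M21 transcripts. In Zfp408, whose human orthologue is mutated in inherited retinal disease, exonic position 91643878 on chromosome 2 had 89 of 178 ends (50%), found in 14 libraries and outside the coding sequence. In Zfp654, position 64851521 on chromosome 16 had 46 of 244 ends (18.9%) in 13 libraries and lies in coding sequence, 131 bases into the gene. The stretches chr2:91643866-91643890 and chr16:64851496-64851546, both read on the minus strand of the gene, are given with the 7 bases around the position in capitals.
Zfp408: aagggctggGTGCTAGgtggagtaa
Zfp654: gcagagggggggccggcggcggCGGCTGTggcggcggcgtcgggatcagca
No library had more than 12 ends at the Zfp408 base or more than 7 at the Zfp654 base.

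Apart from Zfp791, which spans 14.543 kb, the 12 members with most ends were genes of 123.528 kb or more. The 12 with the highest mean CPM, all solitary, held 22.1% of all member ends. Zfp804b, whose paralogue ZNF804A is tied to schizophrenia risk in humans, spans 575.747 kb and had 99.5, 127 and 153 CPM (lowest, median and highest of 8) in shHMGB1, against 71.4, 113 and 134 CPM in shCTRL libraries. The groups overlapped, and its density was 0.155 ± 0.177 CPM per kb in exons and 0.210 ± 0.035 CPM per kb in introns. Zfp407 (461.699 kb, 22 fingers) had 95.6, 111 and 131 CPM in shHMGB1, against 78.1, 116 and 175 CPM in shCTRL libraries, where the 175 CPM is the smallest library. Zfp385b (409.006 kb) had 56.5, 104 and 125 CPM in shHMGB1, against 38.0, 71.0 and 103 CPM in shCTRL libraries, with a log2 difference of 0.33 ± 0.17 (edgeR, adjusted p = 0.522).

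Other long members showed the same overlap. Zfp827, which in human cells brings the NuRD complex to telomeres maintained by recombination, had 41.3, 70.9 and 89.7 CPM in shHMGB1, against 45.7, 82.3 and 120 CPM in shCTRL libraries. Zfp609, which acts with the cohesin loader NIPBL and the Integrator complex in neural progenitors, had 37.3, 69.0 and 74.9 CPM in shHMGB1, against 39.5, 62.7 and 80.4 CPM in shCTRL libraries. Zfp462, a regulator of cell fate in embryonic stem cells, had 32.1, 55.4 and 73.7 CPM in shHMGB1, against 45.7, 58.0 and 81.9 CPM in shCTRL libraries. Zfp827 and Zfp609 stood out by exons of 1.77 ± 0.69 and 1.35 ± 0.59 CPM per kb, and Zfp697 had 1.07 ± 0.52 CPM per kb there. Zfp536, a repressor of neuronal differentiation, had only 0.152 ± 0.172 CPM per kb in exons.

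The 8 members with the highest exon density were 3.323 to 22.455 kb long. Over all members, length and exon density had a rank correlation of 0.006 (385 members), and members over 50 kb had 0.648 ± 0.097 CPM per kb in exons, against 0.545 ± 0.061 CPM per kb in those of at most 50 kb. Zfp36l2, a CCCH member of 4.017 kb with 2 exons, had 4.02 ± 3.24 CPM per kb in exons. It had 2.54, 11.1 and 20.3 CPM (lowest, median and highest) in shHMGB1, against 9.32, 11.6 and 53.3 CPM in shCTRL libraries, and the 53.3 CPM is the smallest library. Only 48.3% of its ends lay in that gene alone, since another gene overlaps it. Zfp408 had 3.87 ± 1.99 CPM per kb in exons and Zfp512b 3.10 ± 1.02 CPM per kb. Zfp809, which in mouse silences Moloney leukaemia virus and related retroelements through their primer binding site, was the first clustered member of this order with 2.81 ± 1.73 CPM per kb. Zfp692 had 2.69 ± 2.47, Zfp598, the ubiquitin ligase that marks collided ribosomes, 2.67 ± 2.63, Zfp513 2.46 ± 1.89 and Zfp207 2.23 ± 0.64 CPM per kb. Neighbours in this order do not differ beyond their spread over libraries.

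Summed exon and intron densities of members differed between the hairpins by less than the spread between replicates. That spread, here and below, is an SD of single libraries set beside a ratio averaged over groups, so the comparison is no test. It also includes an offset by replicate number. Introns of solitary members were higher in replicate 2 than in replicate 1 for each hairpin and dose. In shCTRL at 10 Gy they had 0.335 and 0.274 CPM per kb in that order. Introns of clustered members at 0 Gy had 0.330 and 0.329 CPM per kb in shHMGB1, against 0.326 and 0.326 CPM per kb in shCTRL libraries. At 3 Gy they had 0.278 and 0.293 CPM per kb in shHMGB1, against 0.289 and 0.321 CPM per kb in shCTRL. At 5 Gy they had 0.299 and 0.325 CPM per kb in shHMGB1, against 0.294 and 0.322 CPM per kb in shCTRL. At 10 Gy they had 0.294 and 0.335 CPM per kb in shHMGB1, against 0.293 and 0.343 CPM per kb in shCTRL. The groups overlapped at 3, 5 and 10 Gy, and the log2 ratio over doses was -0.02, against a spread of 0.10 between replicates of a group. Exons of clustered members had 0.470 ± 0.044 CPM per kb in shHMGB1 and 0.470 ± 0.056 CPM per kb in shCTRL libraries.

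Exons of solitary members had 0.623 ± 0.101 CPM per kb in shHMGB1 and 0.696 ± 0.062 CPM per kb in shCTRL libraries (n = 8 each). At 5 Gy the values were 0.611 and 0.564 CPM per kb in shHMGB1, against 0.661 and 0.793 CPM per kb in shCTRL, and at 3 Gy 0.649 and 0.422 CPM per kb in shHMGB1, against 0.677 and 0.709 CPM per kb in shCTRL. The groups did not overlap at these doses and overlapped at 0 and 10 Gy. The log2 ratio over doses was -0.17, with a spread of 0.20 between replicates, and other protein-coding genes had -0.07. Without repeated positions it was -0.18 in solitary members and -0.25 in other protein-coding genes.

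The window of 1 kb on each side of the 5′ end, over all members together, differed between the hairpins by more than the spread between replicates. With each position counted once, other protein-coding genes did so too. With each position counted once, all members had 0.789 ± 0.034 scaled positions per kb in shHMGB1 and 0.933 ± 0.044 in shCTRL libraries at 0 Gy, and 0.623 ± 0.027 in shHMGB1 and 0.688 ± 0.003 in shCTRL libraries at 3 Gy (n = 2 each). At 5 Gy they had 0.757 ± 0.030 in shHMGB1 and 0.836 ± 0.039 in shCTRL libraries, and at 10 Gy 0.723 ± 0.039 in shHMGB1 and 0.660 ± 0.004 in shCTRL libraries. Both shHMGB1 libraries lay below both shCTRL libraries at 0, 3 and 5 Gy and above them at 10 Gy. In other protein-coding genes they also lay below at 0, 3 and 5 Gy, and the hairpins overlapped at 10 Gy. The log2 ratio over doses was -0.10, with a spread of 0.06 between replicates, against -0.21 with a spread of 0.13 in other protein-coding genes. In clustered members alone it was -0.08 with a spread of 0.11 and in solitary members alone -0.13 with a spread of 0.15. Summed as deposited, the ratio was -0.10 in all members and 0.01 in other protein-coding genes, with spreads of 0.06 and 0.24. Both shCTRL libraries held fewer ends in all than both shHMGB1 libraries at 0 and 5 Gy. The part of depth in the ratios with each position counted once was not tested.

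Counted as deposited, intron densities of clustered members were lower in irradiated libraries by less than the spread between replicates. They had 0.307 ± 0.021 CPM per kb in the 12 irradiated libraries and 0.328 ± 0.002 CPM per kb in the 4 libraries at 0 Gy. The log2 ratio of irradiated over 0 Gy was -0.09, smaller than the spread of 0.10 between replicates, and it was negative in 6 of 6 groups, of which the 3 of each line share their 0 Gy libraries. Solitary members showed no such pattern, with 0.295 ± 0.021 CPM per kb irradiated and 0.292 ± 0.018 CPM per kb at 0 Gy. With each position counted once, the log2 ratio in introns of clustered members was -0.13 and exceeded its spread of 0.07. Of the 6 groups 0 were then higher than 0 Gy. The ratio was then -0.006 in solitary members and -0.04 in other protein-coding genes, each with a spread of 0.06.

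A wider difference stood at the 5′ ends. With each position counted once, the window of 1 kb on each side of the 5′ end held 0.714 ± 0.075 scaled positions per kb in irradiated libraries (0.604 to 0.863, n = 12) and 0.861 ± 0.089 at 0 Gy (0.765 to 0.963, n = 4) over all members. The log2 ratio of irradiated over 0 Gy was -0.27 and exceeded the spread of 0.06 between replicates, although the libraries of the groups overlapped. By group it was -0.34, -0.06 and -0.13 at 3, 5 and 10 Gy in shHMGB1, and -0.44, -0.16 and -0.50 in shCTRL cells, so it was not ordered by dose. Other protein-coding genes had -0.21 in the same window, with a spread of 0.13. Their highest value with each position counted once, 1.29 scaled positions per kb, was that of the smallest library, shCTRL 3 Gy replicate 2. Summed as deposited, the ratio of irradiated over 0 Gy was -0.23 in all members, with a spread of 0.06. In other protein-coding genes it was then 0.17 with a spread of 0.24, and 5 of 6 groups were higher than 0 Gy. Depth differed between groups as well. The shCTRL libraries held 485043 and 392139 ends at 0 Gy and 927413 and 131430 at 3 Gy. They held 480565 and 524957 at 5 Gy and 858494 and 845903 at 10 Gy. Counts of distinct positions depend on depth, and the part of depth in ratios with each position counted once was not tested.

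Tests of single members used edgeR's quasi-likelihood test over the 12848 genes with enough ends, with Benjamini-Hochberg adjustment over all of them. Of the 385 members 181 passed the filter on low counts, 82 clustered and 99 solitary. Between shHMGB1 and shCTRL, 0 members passed an adjusted p of 0.05, against 28 of all genes tested (0.218%). At an unadjusted p under 0.05 there were 15 members (8.29%), against 9.69% of all genes, and DESeq2 called 0 members but left 178 of 181 without an adjusted p. The median log2 ratio was 0.03 over members and 0.03 over all genes tested. Between irradiated and 0 Gy libraries edgeR called 0 members, against 3 of all genes (0.0233%), with 9 members (4.97%) at an unadjusted p under 0.05, against 7.18% of all genes, and 0 by DESeq2. For the difference between the lines in their response to irradiation edgeR called 0 members and 0 of all genes (0.0%), with 9 members (4.97%) at an unadjusted p under 0.05, against 5.25% of all genes, and 0 by DESeq2. Within single doses edgeR called 0 members at 0 Gy (0.0% of all genes), 3 Gy (0.00778%), 5 Gy (0.0156%) and 10 Gy (0.0%), with 10, 7, 12 and 4 members at an unadjusted p under 0.05. These are 5.52, 3.87, 6.63 and 2.21% of members, against 5.05, 6.43, 8.09 and 2.70% of all genes. DESeq2 was not run within single doses.

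The members nearest to the threshold between lines are given as values. Zfp791 had 41.9, 62.5 and 114 CPM in shHMGB1, against 41.2, 46.9 and 76.1 CPM in shCTRL libraries, a log2 difference of 0.49 ± 0.18 (edgeR, adjusted p = 0.314). Its pile had 61.1 CPM in shHMGB1 and 43.2 CPM in shCTRL libraries on average. Zfp516, a cold-induced activator of brown fat genes, had 12.7, 28.4 and 42.0 CPM in shHMGB1, against 23.7, 41.4 and 68.6 CPM in shCTRL libraries, a log2 difference of -0.59 ± 0.22 (edgeR, adjusted p = 0.33). Zfp692 had 6.78, 9.79 and 13.3 CPM in shHMGB1, against 10.4, 16.9 and 30.6 CPM in shCTRL libraries (log2 difference -0.80 ± 0.33, edgeR adjusted p = 0.409). Groups overlapped in all 3 genes. The remaining members of this kind were Zfp91, an E3 ubiquitin ligase, at 0.68 ± 0.28, Zfp354c at 1.94 ± 0.86 and Zfp395 at 0.65 ± 0.30 on the positive side, and Zfp65 at -1.06 ± 0.44 and Zfp653 at -1.09 ± 0.45 on the negative side. Without shHMGB1 3 Gy replicate 1, the lone library left in that group had 0 ends in Zfp408 and Zfp653, and edgeR then called both, at log2 differences of -2.16 and -2.32 with adjusted p of 0.0175 and 0.0467.

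For irradiation the smallest p was that of Zfp948, a KRAB zinc finger gene of the chromosome 17 cluster. It had 0, 8.57 and 21.3 CPM (lowest, median and highest of 12) in irradiated libraries, against 10.1, 18.2, 37.1 and 17.9 CPM in the 4 libraries at 0 Gy. The groups overlapped, and the log2 difference was -1.54 ± 0.43 (edgeR, adjusted p = 0.37). Zfp277 had 22.8, 34.4 and 42.6 CPM in irradiated libraries, against 15.9, 31.8, 24.7 and 10.2 CPM at 0 Gy, a log2 difference of 0.73 ± 0.29 (edgeR, adjusted p = 0.601). Zfp532, a fusion partner of NUT in human carcinoma, had 21.0, 38.0 and 53.3 CPM in irradiated libraries, against 33.3, 76.0, 35.0 and 86.7 CPM at 0 Gy, where the replicate 2 libraries were the high ones in both lines (log2 difference -0.62 ± 0.23, edgeR adjusted p = 0.565). The others were Zfp90 (1.64 ± 0.80), Zfp704 (0.60 ± 0.31) and Zfp804a (0.51 ± 0.22) on the positive side, and Zfp672 (-1.26 ± 0.49) and Zfp646 (-0.84 ± 0.37) on the negative side.

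Genes of known function gave no call in any list, and few genes were called at all. Of all 12848 genes tested, 0.218% were called between lines and 0.0233% for irradiation, so counts of 0 in short lists are near that share. Of 8 imprinting and retroelement repressors 5 were tested, and edgeR called 0 in either contrast, 0 of them also having an unadjusted p under 0.05. Zfp57, which keeps imprints by binding methylated imprinting control regions, had 60 ends and was too sparse to test, with 1.33, 3.79 and 8.67 CPM in shHMGB1, against 0, 6.05 and 7.65 CPM in shCTRL libraries. Zfp445, which acts beside it, had 15.3, 24.8 and 29.9 CPM in shHMGB1, against 11.6, 23.6 and 38.0 CPM in shCTRL libraries. Zfp568, the repressor of the placental Igf2 transcript in mouse, had 8.67, 28.3 and 39.9 CPM in shHMGB1, against 12.5, 24.2 and 60.9 CPM in shCTRL libraries. Zfp708, a repressor of RMER19B retroelements in mouse, shares 95.6% of its 31-mers, and all of its ends also lie in another annotated gene. It had 2.89 and 1.13 CPM in shHMGB1 at 0 Gy, against 26.8 and 12.8 CPM in shCTRL at 0 Gy, while the other doses overlapped, and the difference between the lines in the response to irradiation was 3.33 ± 1.23 on the log2 scale (edgeR, adjusted p = 0.936).

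Of 18 developmental and chromatin regulators 15 were tested, and edgeR called 0 in either contrast, against 0.218 and 0.0233% of all genes. Zfp804a alone had an unadjusted p under 0.05, for irradiation. Of all genes, 9.69% had such a p between lines and 7.18% for irradiation. They ranged from 5 ends in Zfp703, a cofactor amplified in human breast cancer, to the 1394 ends of Zfp804b, and 0 of them were clustered. Zfp217, a gene amplified in human breast cancer, had 17.3, 21.6 and 24.2 CPM in shHMGB1, against 12.4, 18.0 and 43.4 CPM in shCTRL libraries. Zfp42, the pluripotency marker Rex1, had 24 ends in all and 0 in 5 libraries. Among the CCCH members 1 of 3 was tested and 0 were called. Zfp36 had 0, 2.40 and 5.94 CPM (lowest, median and highest of 12) in irradiated libraries, against 5.78, 9.08, 8.25 and 7.65 CPM in the 4 libraries at 0 Gy, on 45 ends in all, and 1 irradiated library lay above the lowest library at 0 Gy. Only 37.8% of its ends lay in that gene alone.

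The partners of KRAB zinc finger proteins were looked at beside them. All 14 partner genes on the list, Trim28, Setdb1, the HP1 genes Cbx1, Cbx3 and Cbx5 and NuRD components among them, passed the filter. In both contrasts edgeR called 0 in either direction, against 0.218% of all genes between lines and 0.0233% for irradiation. The lowest edgeR adjusted p was 0.262, for the NuRD helicase gene Chd3 (log2 difference between lines -0.46 ± 0.15).

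Windows of 1 Mb collect more ends than single genes do. Of 2578 windows tested 37 held at least 3 members, 218 members in all. Between lines edgeR called 4 windows of all (0.155%) and 0 of the 37, with 11 of the 37 (29.7%) at an unadjusted p under 0.05, against 17.0% of all windows, and DESeq2 called 0 of the 37 with the same number, 11, at an unadjusted p under 0.05, but left 17 of the 37 without an adjusted p. The edgeR count of 0 was 3 without shCTRL 3 Gy replicate 1, 3 without shHMGB1 3 Gy replicate 1 and 5 with a replicate block within each line, fits that called 217, 151 and 188 of all windows in the same order. The windows with the smallest p were chr13:62000001-63000000 (Zfp808, Zfp935, Zfp934) at 0.28 ± 0.10 and chr17:21000001-22000000 with 14 members at 0.23 ± 0.08, both positive, and chr7:24000001-25000000 with 12 members at -0.23 ± 0.09, with edgeR adjusted p of 0.181 to 0.198. Between irradiated and 0 Gy libraries edgeR called 0 of the 37 and 0 of all windows (0.0%), with 6 of the 37 at an unadjusted p under 0.05, all of them negative, which is 16.2% against 14.4% of all windows, and 0 called by DESeq2. Over the 37 windows 12 had a positive log2 ratio for irradiation, with a median of -0.09, against a median of 0.00 over all windows.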

How the data were processed

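BLISS break ends were analysed in 16 libraries, 2 biological replicates for each of 8 combinations of hairpin and dose. The deposited files list intervals of mm10 with the positions of their ends and counts of molecules. Per the submitters' processing notes, Trimmomatic 0.32, UMI-tools, BWA 0.7.5-r404, SAMtools and bedtools were used by the authors, and the strand is not kept in the deposited counts. Ends were assigned to exons and introns of GENCODE M21 and given as counts scaled to 1000000 ends on the main chromosomes (CPM). The total of 131430 to 1010888 ends per library sets the precision, and floors cover counting error only.

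Genes and windows of 1 Mb were tested with edgeR 4.0.16 (quasi-likelihood, TMM, filterByExpr, 8 group means) under R 4.3.3, and DESeq2 1.42.0 served as an alternative. Contrasts were shHMGB1 against shCTRL over doses, irradiated against 0 Gy over lines, and their difference. The 3 doses of a line share its 0 Gy libraries. The edgeR fit of genes between hairpins was tried on simulated counts with known changes and a fixed spread. Densities, clusters, windows and the other contrasts were not simulated. Dense regions are those within 1 kb of a deposited cluster of at least 1000 ends. Shared sequence is the percent of a gene's transcript 31-mers found in another gene's transcripts, on either strand. It includes genes that overlap the member and leaves out introns. KRAB and C2H2 patterns were searched in all forward frames of translated transcripts, so a diverged KRAB domain can be missed and a pattern outside the coding frame can be counted.

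The genes named are the 12 members with most ends, the 8 with the highest exon density among those with at least 20 ends, the 4 with the smallest p in each direction for hairpin and for irradiation, members past a test, the 6 clusters with most members, and 3 lists: CCCH genes, imprinting and retroelement repressors, and developmental and chromatin regulators. Zfp993, Zfp991, Zfp978, Zfp683, the 5 genes without ends and the genes with most ends at a single base or promoter were named after their values were seen. The members and lists were chosen with earlier results of these data known. Alternatives changed the normalization, filter, repeated positions, depth, cluster distance, pooling and libraries used. Computation used Python 3.11.15, numpy 2.4.6, pandas 2.3.3, scipy 1.17.1, matplotlib 3.10.9 and Biopython 1.88. Mesothelial (2 of 9 tested), blood cell (2 of 6) and neuronal (3 of 4) marker genes had 0 calls by edgeR in either contrast. Of all genes tested, 0.218% were called between lines and 0.0233% for irradiation.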

Additional observations from a re-analysis of the deposited data

How the results depend on the processing

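Values are log2 ratios unless a count is named. The lower exon density of clustered than of solitary members kept its direction under the alternatives named here and with each library left out, and was -0.31 among members sharing at most 5% of their 31-mers. It did not hold within members with a KRAB pattern (0.430 clustered and 0.391 CPM per kb solitary) or within those sharing over 50% (0.321 and 0.254 CPM per kb in the same order). The intron difference was 0.0061 with clusters drawn at 250 kb and -0.24 as a mean over genes. Under alternatives chosen after seeing the data it was 0.39 among members sharing at most 5%, -0.21 among members of at most 50 kb, -0.12 among these with each position counted once, -0.078 among these without Zfp791, -0.18 as a mean over genes with each position counted once, and -0.029 relative to genes of the same chromosome without dense regions. Exon over intron was 0.37 in clustered and 0.59 in solitary members as a mean over genes. The cause was not tested.

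The edgeR count of members called between the lines was 0 to 2 with each library left out in turn, and 2 only without shHMGB1 3 Gy replicate 1, when 141 of 15341 genes were called. The count of windows with at least 3 members was 0 to 3, with 3 without shCTRL 3 Gy replicate 1 (217 windows called in all) and 3 without shHMGB1 3 Gy replicate 1 (151 in all). The lone library left is then assumed to vary like the other groups. Replicate numbers do not pair the samples by the labels, and deviations of libraries with the same number correlated over genes at 0.025 to 0.061 within a line and at -0.091 to 0.030 across lines. Summed densities did differ by replicate number, with introns of solitary members higher in replicate 2 for each hairpin and dose. With a replicate block within each line 5 windows were called (188 of 2578 in all), and with a plain replicate block 0 were; neither block called a member. Zfp408 and Zfp653 alone among the named genes gained a call, at -2.16 and -2.32. Densities over 31-mers that occur once in the genome were not run. Depth limits single genes, since 181 of 385 members had enough ends to test.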
